A study of Mus musculus with 22 samples.

Results

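The Hox genes encode homeodomain transcription factors that give cells along the head-to-tail axis of the embryo their positional identity. In the mouse they lie in 4 clusters, and genes of the same paralogue number in different clusters are the closest relatives. Low numbers are known from the hindbrain and neck, middle numbers from the trunk, and high numbers from the lumbar and tail regions, the limbs and the urogenital tract. Their proteins bind DNA together with PBX and MEIS proteins, the TALE cofactors. Clusters that are not in use are kept silent by Polycomb complexes, and retinoic acid, CDX proteins and GDF11 help to open them. The cells that later become eggs or sperm, called primordial germ cells (PGCs), are known for shutting off the Hox genes when they are set aside from the neighbouring mesoderm.

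The members were the protein-coding genes named Hox followed by a cluster letter from a to d and a paralogue number, chosen by name and not by level. Of 39 such genes, 38 were matched in both count tables, among 37991 and 37620 genes in all, and Hoxd4 was not matched. Cluster a on chromosome 6 gave 11 members, cluster b on chromosome 11 gave 10, cluster c on chromosome 15 gave 9, and cluster d on chromosome 2 gave 8 of its 9.

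RNA was sequenced from sorted mouse PGCs at E10.5 (E for embryonic day), with the sexes together, and from females and males apart at E12.5 and E14.5. Embryos came from parents that were both heterozygous for a Tet1 mutation and both carried the GOF18ΔPE-EGFP transgene, a Pou5f1 reporter active in germ cells; TET1 protein is a dioxygenase that acts on methylated cytosines. Tet1-KO and Tet1-WT cells were compared at each stage and sex, in 10 groups of 2 libraries, and 2 further wild-type libraries at E10.5 came from MF1 females crossed with reporter males. Each library of the Tet1 cross held RNA pooled from 2 to 6 embryos (1000 to 8000 cells), each MF1 library RNA of 600 to 1000 cells isolated with another kit, and the kind of Tet1 mutation is not given in the sources used here. Nothing states how the pools of a group relate to litters, so the tests measure only the spread between these libraries. The Tet1-KO libraries at E12.5 and E14.5 carry no usable replicate number and are called a and b in table order.

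Total counts ran from 9616436 to 25899505 per library in the Tet1 cross and were 59415040 and 66924911 in the MF1 cross. Levels are in CPM, counts of a gene scaled to a common library total, n = 2 libraries per group, and differences are log2 ratios fitted by edgeR's quasi-likelihood test with their standard errors (SE). Calls required an adjusted p (Benjamini-Hochberg, over all 17567 genes tested) under 0.05. For Tet1 itself, E10.5 Tet1-WT gave 134 and 76.8 CPM, and E10.5 Tet1-KO gave 44.5 and 102. Tet1-KO replicate 2 therefore lay above Tet1-WT replicate 2, and the E10.5 groups are called libraries labelled Tet1-KO and labelled Tet1-WT; every direction between them rests on those labels. E12.5 females had 179 and 226 CPM of Tet1 as Tet1-WT but 53.1 and 68.9 as Tet1-KO, and E12.5 males 178 and 309 but 79.3 and 84.4 CPM. E14.5 females had 35.2 and 49.2 CPM (Tet1-WT) and 21 and 25.8 (Tet1-KO), while the E14.5 male ones had 218 and 155 CPM (Tet1-WT) and 99.5 and 79.9 (Tet1-KO). Of the 5 comparisons of genotypes, Tet1 was called in that of E12.5 females (log2 -1.73, SE 0.37, adjusted p = 0.0303). Summed CPM of 10 germ cell markers ran from 1445 to 1766 in E10.5 libraries labelled Tet1-WT, from 3946 to 6068 in those labelled Tet1-KO, and from 4979 to 10966 in the 16 later libraries.

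TET1 acts on cytosine, mostly where it is followed by guanine, so the start regions of 3 members on which the results below turn are shown with each CG in capitals. They come from RefSeq on build GRCm38.p6, run 5′ to 3′ on the gene's own strand, and cover 250 bases before to 50 after a transcript start. RefSeq's table held a start region for 22 of the 39 genes, and Hoxc10 was not among them. Hoxd10 and Hoxd8 belong to cluster d, at chr2:74691641-74691940 and chr2:74704365-74704664 on the plus strand. The Hoxa10 region is at chr6:52234890-52235189 on the minus strand and is 1 of 2 listed for that gene.
Hoxd10: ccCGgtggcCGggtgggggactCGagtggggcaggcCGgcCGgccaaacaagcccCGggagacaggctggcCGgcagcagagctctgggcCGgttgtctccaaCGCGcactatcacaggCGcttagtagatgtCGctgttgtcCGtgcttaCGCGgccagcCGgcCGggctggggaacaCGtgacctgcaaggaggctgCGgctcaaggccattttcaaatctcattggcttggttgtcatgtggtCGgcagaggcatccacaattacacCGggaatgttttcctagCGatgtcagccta
Hoxd8: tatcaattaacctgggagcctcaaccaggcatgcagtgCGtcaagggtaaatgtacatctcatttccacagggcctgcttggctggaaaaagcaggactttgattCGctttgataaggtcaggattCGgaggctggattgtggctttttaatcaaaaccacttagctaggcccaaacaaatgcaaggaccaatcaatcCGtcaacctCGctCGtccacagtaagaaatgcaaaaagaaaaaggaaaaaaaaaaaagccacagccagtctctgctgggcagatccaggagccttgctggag
Hoxa10: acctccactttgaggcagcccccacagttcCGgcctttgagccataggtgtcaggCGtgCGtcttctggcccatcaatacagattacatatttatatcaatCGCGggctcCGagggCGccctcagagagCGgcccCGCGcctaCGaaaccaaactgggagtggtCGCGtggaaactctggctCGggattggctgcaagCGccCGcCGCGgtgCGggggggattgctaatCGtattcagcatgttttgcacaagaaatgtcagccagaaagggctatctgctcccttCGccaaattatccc
The Hoxd10 region held 22 CG and the Hoxd8 region 6, which put them above 76.9% and 43.6% of all 32851 regions in the table. Of the 24 Hox regions, 20 held more CG than the median of all regions, which was 7. The motif TGATNNAT, a composite site that HOX and PBX proteins can bind, was found on either strand in 4 of the 24 Hox regions (16.7%) and in 8.85% of all. These are counts of letters in the windows, and DNA methylation was not analysed here.

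Hox RNA was found in every group, and in Tet1-WT its summed level was lower at each later stage. Summed over the 38 members, it was 337 and 453 CPM in E10.5 libraries labelled Tet1-WT and 129 and 192 CPM in those labelled Tet1-KO. E12.5 females had sums of 73.3 and 96 CPM (Tet1-WT) and 5.92 and 8.18 CPM (Tet1-KO), and E12.5 males 169 and 100 CPM (Tet1-WT) and 36.4 and 22.9 CPM (Tet1-KO). The Tet1-WT libraries thus lay above both Tet1-KO libraries of the same age and sex in these 3 pairs of groups. At E14.5 the genotypes overlapped within each sex. Females had 12.6 and 8.59 CPM (Tet1-WT) and 8.77 and 10.3 CPM (Tet1-KO), and males 4.63 and 3.92 CPM (Tet1-WT) and 4.77 and 2.97 CPM (Tet1-KO). Every female library of that age lay above every male one. In raw reads the sum ran from 8385 counts in an E10.5 library labelled Tet1-WT to 49 counts in an E14.5 male Tet1-KO library. These sums are a description with no test.

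**Figure D1:**
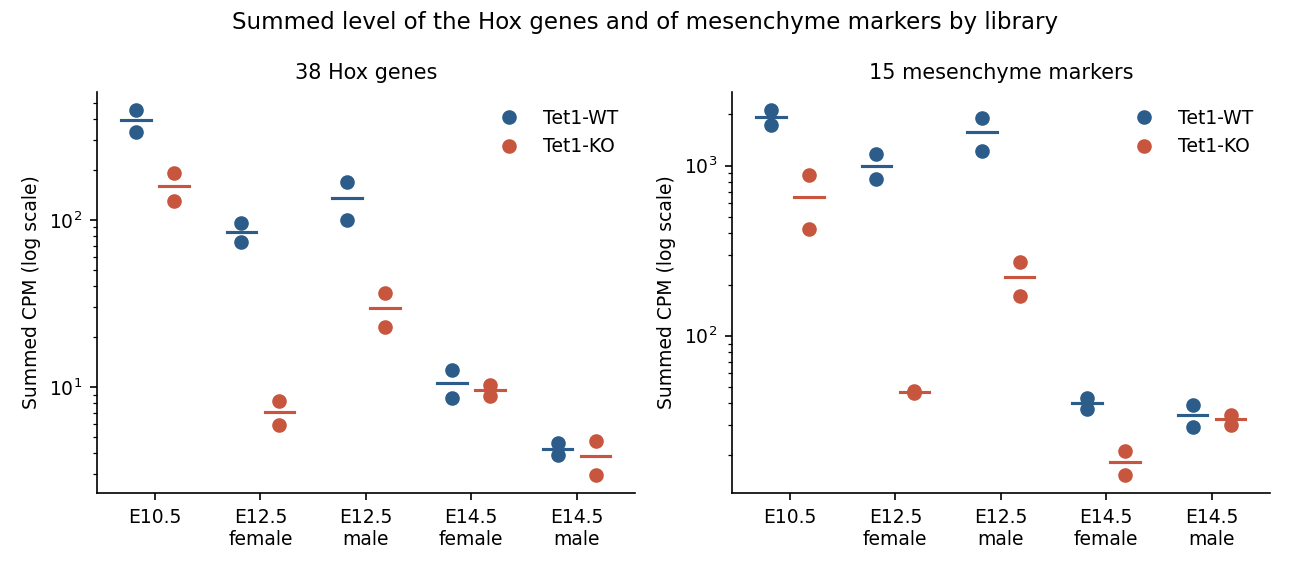
Summed CPM (log scale) of the 38 Hox genes on the left and of 15 gonadal and mesonephric mesenchyme markers on the right, by stage, sex and genotype; each point is a library and each bar the mean of 2. By group mean both sums are highest at E10.5 in libraries labelled Tet1-WT; they lie lower in Tet1-KO than in Tet1-WT at E12.5 and reach 2.97 CPM (Hox) and 15.2 CPM (mesenchyme) in the lowest E14.5 libraries.

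Markers of mesenchyme, the connective tissue around the germ cells, lay lower in Tet1-KO along with the Hox sum at E10.5 and E12.5. The 15 markers summed to 1741 and 2115 CPM in E10.5 libraries labelled Tet1-WT against 425 and 877 CPM in those labelled Tet1-KO. They summed to 829 and 1167 against 46.3 and 47.4 CPM in E12.5 females, and to 1906 and 1226 against 273 and 171 CPM in E12.5 males, Tet1-WT first. In Tet1-WT the mesenchyme sums of E10.5 and of E12.5 males thus overlapped, whereas the Hox sums of those groups did not. At E14.5 the mesenchyme sum was between 15.2 and 42.9 CPM. Each library up to E12.5 had counts for at least 14 of the 15, while at E14.5 between 8 and 14 had counts and Osr1, a factor of intermediate mesoderm, was at 0 in all 8. Across the 20 libraries the rank correlation of the Hox sum was 0.85 with the mesenchyme sum and -0.71 with the germ cell sum. This is a description over libraries that share stages and depth, and the markers' part in the Hox results was not tested. In such bulk RNA fewer cells of a type and less RNA per cell cannot be told apart.

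The ratio of the 2 sums was not constant. Hox over mesenchyme was 0.0884 and 0.0823 in E12.5 female Tet1-WT against 0.128 and 0.173 in Tet1-KO, and 0.0885 and 0.0818 against 0.133 and 0.134 in males. At E12.5 the Tet1-KO libraries thus had less Hox RNA in total but more of it per unit of mesenchyme RNA, in both sexes. At E14.5 the ratio was 0.294 and 0.231 in female Tet1-WT and 0.576 and 0.496 in female Tet1-KO. In males of that age it was 0.118 and 0.134 against 0.159 and 0.0864, and the genotypes overlapped. At E10.5 the ratio was 0.193 and 0.214 in libraries labelled Tet1-WT and 0.304 and 0.219 in those labelled Tet1-KO. The wild-type MF1 libraries, scaled separately, had ratios of 0.47 and 0.658, so a high ratio was not confined to Tet1-KO.

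Per kilobase of exon, the paralogue group 10 genes, known for specifying lumbar vertebrae without ribs, led the E10.5 libraries labelled Tet1-WT. Hoxd10 stood at 23.2 CPM per kb (libraries 18.8 and 27.5), Hoxc10 at 18.8 (17.7 and 20) and Hoxa10 at 12.9 (8.29 and 17.6), followed by Hoxd8 at 12.2 (7.74 and 16.7) and Hoxa7 at 11.6 (9.09 and 14.2). The libraries of Hoxc10 and Hoxa10 did not overlap, while those of each other pair of neighbours in that order did. The lowest members with a count were Hoxb3 at 0.131, Hoxd1 at 0.106 and Hoxb8 at 0.0107 CPM per kb. Hoxb13, Hoxc12 and Hoxc13 had 0 counts in all 4 E10.5 libraries of the Tet1 cross. The 3 paralogue group 10 genes also held the first 3 ranks in E12.5 Tet1-WT of both sexes: 5.91, 5.36 and 4.28 CPM per kb for Hoxc10, Hoxa10 and Hoxd10 in females, and 10.1, 8.49 and 6.13 for Hoxa10, Hoxc10 and Hoxd10 in males.

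By position in the clusters, the summed level in Tet1-WT at E10.5 and E12.5 was highest in paralogue group 10 and lower beyond it. In E10.5 libraries labelled Tet1-WT paralogue group 10 summed to 99.4 and 141 CPM, group 8 to 44.2 and 71.7, group 4 to 22.1 and 13.6 and group 11 to 10.3 and 17.9 CPM. In E12.5 female Tet1-WT group 10 summed to 29.1 and 44.1 CPM and group 9 to 5.77 and 3.94 CPM, and in males to 74.5 and 46.2 against 19 and 9.28 CPM. Group 11, at 4.65 and 3.15 CPM, overlapped group 9 in those females, and in males it had 7.14 and 3.32 CPM. In E14.5 female Tet1-WT group 8 lay above group 10, at 8.66 and 4.98 against 1.41 and 0.742 CPM. These sums are not per length. Clusters a, c and d carried most of the RNA in E12.5 Tet1-WT, whereas cluster b held 12.4% of the Hox sum at E10.5 and 4.99% and 4.24% in E12.5 females and males.

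**Figure D2:**
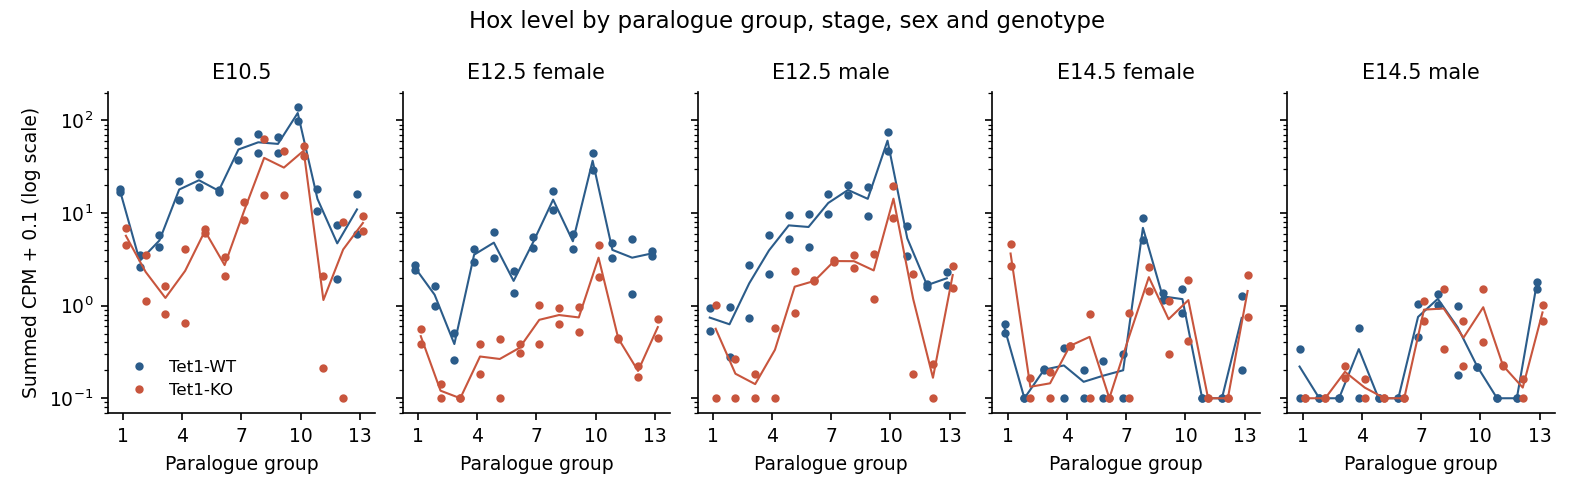
Summed CPM plus 0.1 (log scale) of the members of each paralogue group from 1 to 13, in 5 panels by stage and sex; points are libraries, lines join the means of 2, blue is Tet1-WT and red Tet1-KO. Paralogue group 10 is the highest in Tet1-WT at E10.5 and at E12.5 in both sexes, and at E14.5 most groups are near the bottom of the axis.

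**Figure D3:**
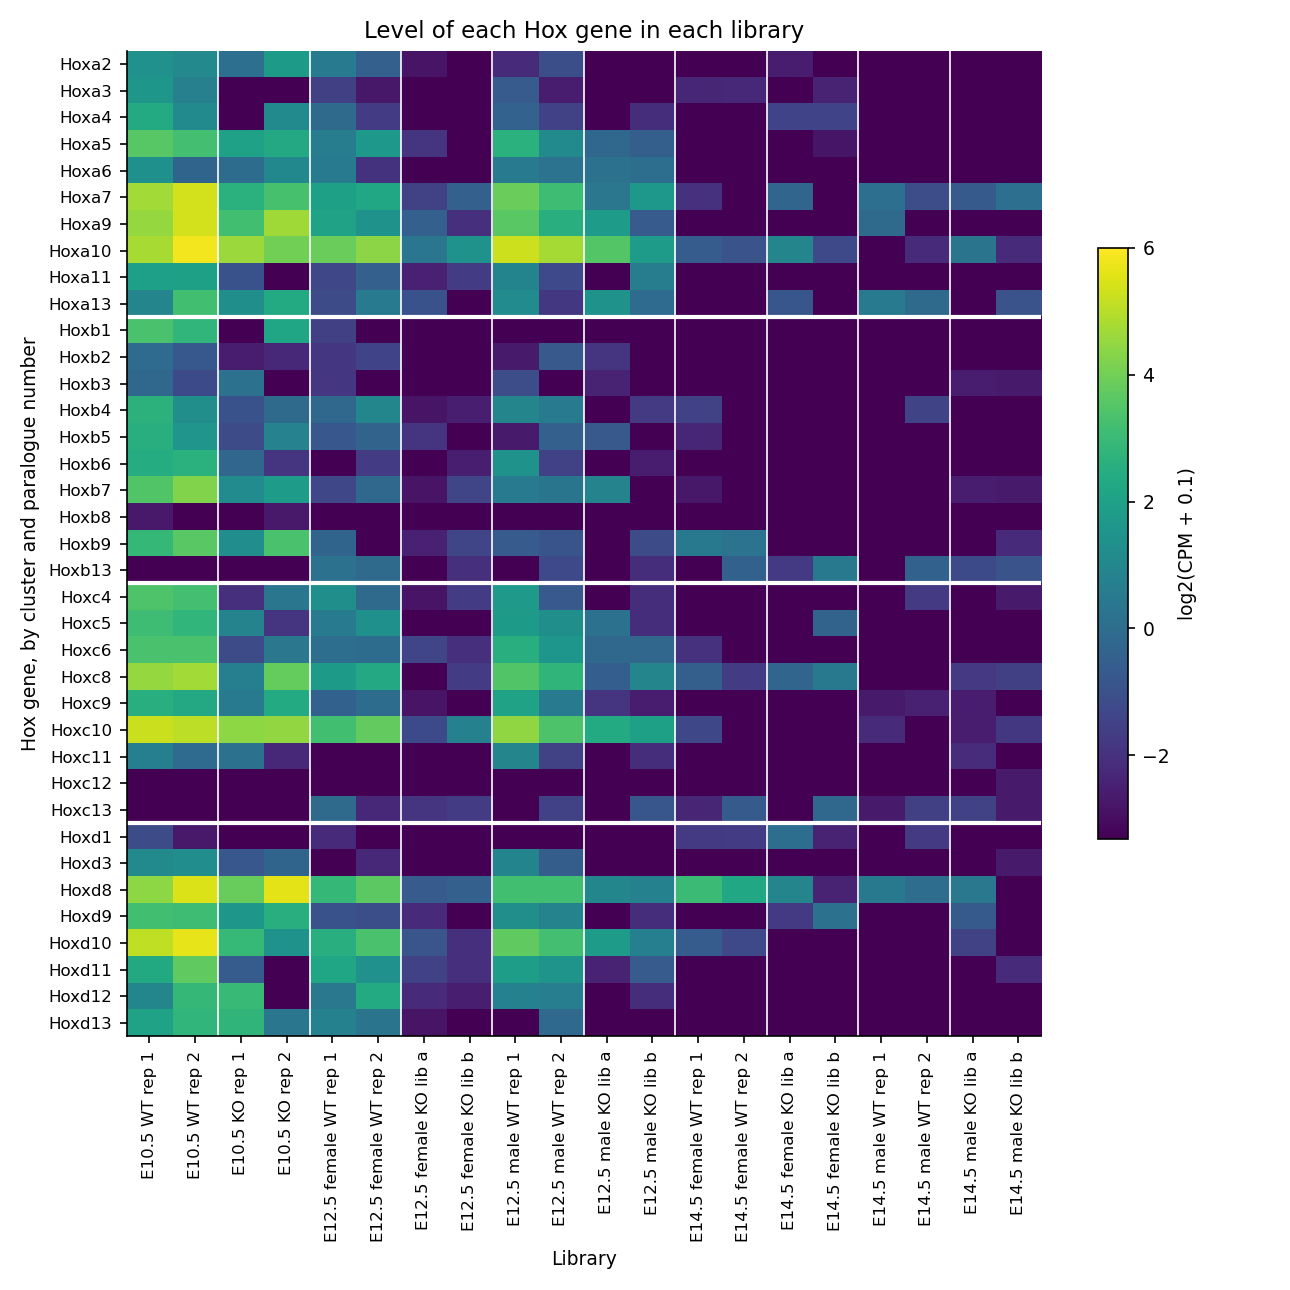
Level of 37 of the 38 members in each of the 20 libraries of the Tet1 cross as log2(CPM + 0.1), in rows by cluster and paralogue number and in columns by group; white lines part clusters and groups. Members from Hoxa7 to Hoxa10, Hoxc8 to Hoxc10 and Hoxd8 to Hoxd10 are bright up to E12.5 in Tet1-WT, and most rows are dark at E14.5.

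At E10.5 most Hox genes lay lower in libraries labelled Tet1-KO, and Hoxd10 passed the test. Hoxd10, a patterning gene of the lumbar region and hindlimb, stood at 34.2 and 50 CPM in libraries labelled Tet1-WT and at 7.54 and 2.68 CPM in those labelled Tet1-KO. The groups did not overlap, and the log2 difference was -3.04 (SE 0.81, edgeR adjusted p = 0.0351). It was 1 of 34 members tested, against 4.7% of all genes called lower (4.1% higher). Of the 35 members with a count in these libraries, 23 lay lower in both libraries labelled Tet1-KO than in either labelled Tet1-WT, and 0 lay higher, beside 23.5% of all genes lower and 18.2% higher in this way. The median difference over the 34 was -1.32, against 0.00 over all genes tested. Hoxd10 no longer passed when Tet1-WT replicate 1 (adjusted p = 0.0701), Tet1-WT replicate 2 (0.179) or Tet1-KO replicate 2 (0.0983) was left out, and 3 members were called when Tet1-KO replicate 1 was. With the mesenchyme level as a covariate its difference was -2.15 and was not called (adjusted p = 0.907). The mesenchyme sum itself did not overlap between these groups of 2 libraries. Such a fit therefore cannot separate it from the group difference, here or in the comparisons below, and a lost call decides nothing. In the same comparison 2 of the 15 mesenchyme markers, Prrx1 and Nr2f2, were called lower and 7 of the 10 germ cell markers higher. Each of the 15 lay lower in both libraries labelled Tet1-KO than in either labelled Tet1-WT, with a median log2 difference of -1.63.

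Other members at E10.5 spanned a wide range. Hoxc10 stood at 38.1 and 33.7 CPM in libraries labelled Tet1-WT and at 21.3 and 22.2 CPM in those labelled Tet1-KO (log2 -0.72, SE 0.71, adjusted p = 0.573). Hoxa10 stood at 27.1 and 57.5 against 24.4 and 15.9 CPM, and Hoxb7, the highest member of cluster b by mean CPM over the Tet1 cross and a trunk gene, at 11.1 and 18.9 against 2.13 and 3.34 CPM. For these 3 genes the groups did not overlap, yet the differences were not called. Hoxd8, a trunk gene of cluster d, overlapped between the groups, with 21.2 and 45.7 CPM in libraries labelled Tet1-WT and 14.1 and 49.1 CPM in those labelled Tet1-KO. The library labelled Tet1-KO with more Hoxd8, replicate 2, was also the one with more mesenchyme RNA. Hoxc6 was nearest to a call after Hoxd10, at 10 and 9.94 against 0.343 and 1.21 CPM (log2 -3.67, SE 1.11, adjusted p = 0.06). Not all members were lower in each library labelled Tet1-KO: Hoxd12, a gene of the digits, stood at 1.86 and 7.35 CPM in libraries labelled Tet1-WT and at 7.88 and 0 CPM in those labelled Tet1-KO. Hoxa3, a gene of the neck and pharyngeal organs, had 0 counts in both libraries labelled Tet1-KO, which makes it at least 12.2-fold lower than its 2.94 and 1.57 CPM (adjusted p = 0.0666), with 3 counts per library as the floor.

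In E12.5 females most Hox genes lay far lower in Tet1-KO than in Tet1-WT, and 2 passed edgeR's test, against 8 by DESeq2, 10 without a filter on low counts and 7 when the 4 libraries were fitted alone. Hoxd10 stood at 5.71 and 9.83 CPM in Tet1-WT and, in Tet1-KO, at 0.455 and 0.141 CPM (log2 -4.59, SE 0.91, adjusted p = 0.0258). Hoxc10, its paralogue in cluster c, stood at 8.95 and 13.6 CPM in Tet1-WT and, in Tet1-KO, at 0.331 and 1.62 CPM (log2 -3.58, SE 0.82, adjusted p = 0.0475). Neither gene overlapped between the groups. In this comparison 1.15% of all genes were called lower and 0.142% higher. Of 35 members with a count, 27 lay lower in both Tet1-KO libraries and 0 higher, beside 21.3% of all genes lower and 20.4% higher in this way, and the median difference over the 34 tested was -3.70 (all genes -0.02). Both calls were lost without Tet1-WT replicate 2, Tet1-KO library a or Tet1-KO library b, with adjusted p up to 0.345, while 3 members were called without Tet1-WT replicate 1. With the mesenchyme level as a covariate 0 members were called, and 9 of the 15 mesenchyme markers fell themselves, led by Nr2f2, Col1a1 and Col3a1. The median log2 difference of the 15 was -4.06.

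Below the threshold in E12.5 females, Hoxa10 stood at 14.4 and 20.6 CPM in Tet1-WT and, in Tet1-KO, at 1.16 and 2.68 CPM (log2 -3.21, SE 0.85, adjusted p = 0.0817). Hoxd8 stood at 7.36 and 12.4 against 0.538 and 0.634 CPM, and Hoxb7 at 0.295 and 0.789 against 0.0414 and 0.282 CPM. Hoxc8, a gene of the lower thorax, stood at 3.24 and 4.78 against 0 and 0.211 CPM (log2 -5.40, SE 1.28, adjusted p = 0.0552). All 4 had both Tet1-KO libraries below both Tet1-WT libraries. Hoxc5 had 0 counts in both Tet1-KO libraries and was at least 11.2-fold lower than its 1.3 and 2.47 CPM in Tet1-WT; its annotated exons share bases with Hoxc10 on the same strand.

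In E12.5 males 0 members were called by edgeR, at 17 of 34 with an unadjusted p under 0.05, and 3 were called lower by DESeq2. Hoxa10 stood at 39.4 and 26.6 CPM in Tet1-WT and, in Tet1-KO, at 11.2 and 3.47 CPM (log2 -2.18, SE 0.80, adjusted p = 0.225). Hoxc10 stood at 16.2 ± 8.13 against 4.43 ± 0.882 CPM (mean ± SD, n = 2 each), Hoxd10 at 13.1 and 9.15 against 3.37 and 1.53 CPM, and Hoxd8 at 8.89 and 8.84 against 1.85 and 1.6 CPM. These 4 genes did not overlap between the groups, whereas Hoxb7 did, at 1.33 and 1.13 against 1.68 and 0 CPM. Of 34 members with a count, 24 lay lower in both Tet1-KO libraries and 0 higher, beside 23.4% of all genes lower and 23.5% higher in this way, with 0.939% called lower and 0.12% higher. The median over the members tested was -2.40 (all genes 0.00). Hoxc9 had the smallest p of the members, at 3.99 and 1.38 against 0.168 and 0.0667 CPM (log2 -4.46, SE 1.35, adjusted p = 0.145). Of the mesenchyme markers 6 of 15 were called lower in this comparison, and the median log2 difference of the 15 was -2.86.

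The difference between the sexes in the Tet1-KO effect was tested directly. At E12.5 0 members passed by edgeR (0% of all genes), with 1 at an unadjusted p under 0.05, and for Hoxd10 the male effect minus the female effect was 2.40 (SE 1.14, adjusted p = 0.871). A member called in females and not in males is therefore not shown to differ between them.

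**Figure D4:**
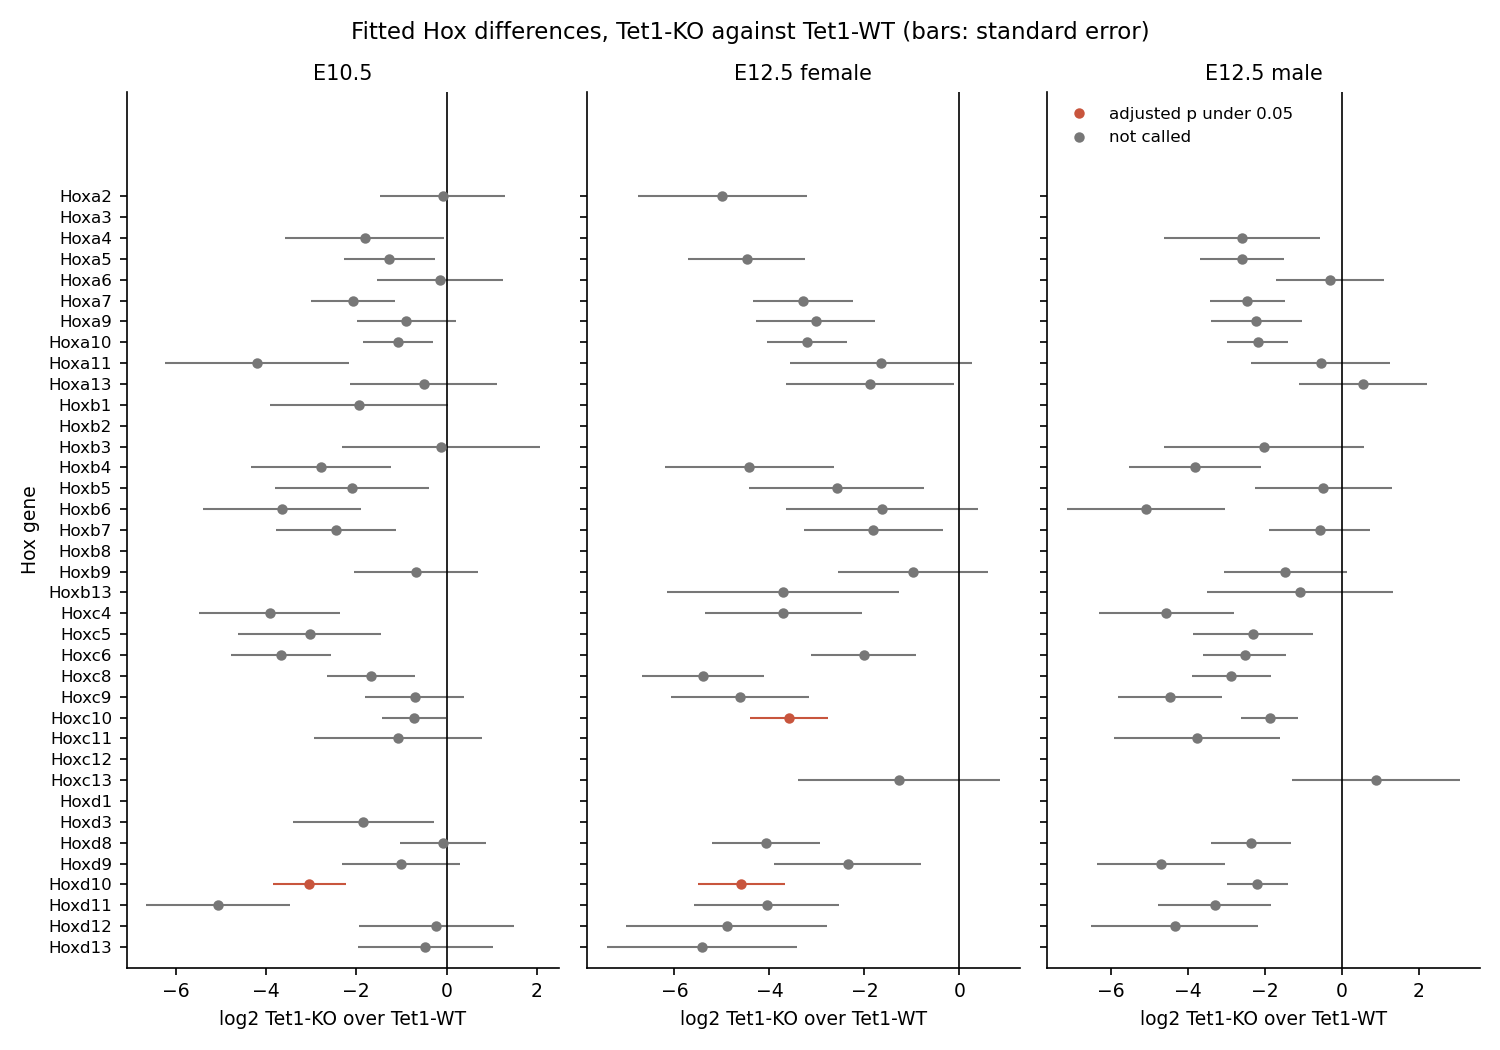
Fitted log2 ratio of Tet1-KO over Tet1-WT with its standard error for tested members without a group at 0 counts (1 member is not drawn), at E10.5 and in E12.5 females and males; red points were called. Most points lie left of 0 in each panel, Hoxd10 is red at E10.5 and Hoxc10 and Hoxd10 are red in E12.5 females.

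At E14.5 Hox RNA was scarce, and the leading members were not the same in each group. In female Tet1-WT Hoxd8 led per length at 2.34 CPM per kb, against 0.45 for Hoxb9 and 0.24 for Hoxd10. Hoxd8 stood at 8.05 and 4.77 CPM in female Tet1-WT and, in female Tet1-KO, at 1.78 and 0.09 CPM (log2 -2.84, SE 1.08, adjusted p = 0.138). In males it stood at 1.25 and 0.919 CPM in Tet1-WT and at 1.23 and 0 CPM in Tet1-KO. For Hoxd8 the E14.5 female Tet1-WT libraries overlapped those of E12.5 (log2 -0.61, SE 0.97, adjusted p = 0.697), whereas the mesenchyme sum was 829 and 1167 CPM at E12.5 and 42.9 and 37.2 CPM at E14.5. Whether the stage difference of Hoxd8 differed from that of other members was not tested.

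Hoxd10 was the called member of the E14.5 females. It stood at 0.554 and 0.318 CPM in Tet1-WT (11 and 3 counts) and had 0 counts in both Tet1-KO libraries. With the floor of 3 counts it was at least 2.62-fold lower (edgeR adjusted p = 0.0484), beside 3.29% of all genes called lower and 3.36% higher. That bound leaves out the counting error of the few Tet1-WT reads. In E14.5 males it had 0 counts in both Tet1-WT libraries and stood at 0.258 and 0 CPM in Tet1-KO. The difference between the sexes for Hoxd10 was nearest to a call among the members (adjusted p = 0.0641), and 0 of 34 passed by edgeR (1.43% of all genes), with 3 at an unadjusted p under 0.05 and 2 called by DESeq2. Leaving out each of the 4 libraries in turn ended the female call (adjusted p from 0.0732 to 0.3). Of 22 members with a count in E14.5 females, 4 lay lower in both Tet1-KO libraries and 4 higher, beside 27.5% and 19% of all genes. As many members thus lay higher as lower. In this comparison 2 of 15 mesenchyme markers fell and 7 of 10 germ cell markers rose.

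Hoxb9 and Hoxa13 were chosen after their values were seen. Hoxb9 stood at 1.26 and 1.06 CPM in female Tet1-WT and had 0 counts in female Tet1-KO (at least 6.97-fold lower, adjusted p = 0.0772). Hoxa13, a gene of the hindgut end and genital tubercle, stood at 1.37 and 0.839 CPM in male Tet1-WT and at 0 and 0.425 CPM in male Tet1-KO. Per length it had the highest mean of male Tet1-WT, 0.446 CPM per kb (libraries 0.339 and 0.553), which overlapped Hoxd8 at 0.395 (0.335 and 0.455).

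**Figure D5:**
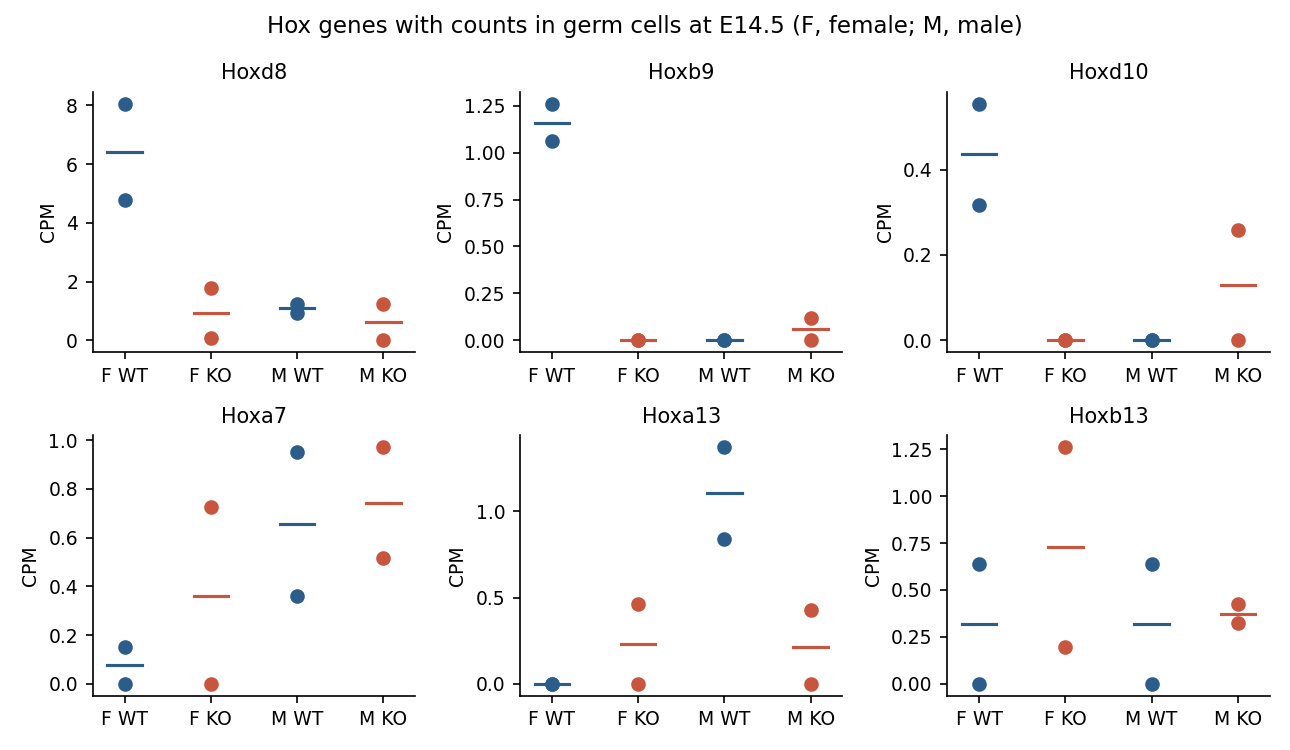
CPM of 6 members in the 8 libraries at E14.5, with points for libraries and bars for the mean of 2; F is female, M male, blue Tet1-WT and red Tet1-KO, and each panel has its own axis. Hoxd8, Hoxb9 and Hoxd10 are highest in female Tet1-WT, and Hoxa13 is highest in male Tet1-WT (1.37 and 0.839 CPM).

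In E14.5 males 0 of 34 members were called, with 5 at an unadjusted p under 0.05 and 0 by DESeq2. Of 23 members with a count, 1 lay lower in both Tet1-KO libraries and 4 higher, beside 17% and 22.7% of all genes, while 0.0228% of all genes were called lower and 0.0797% higher. The values of the main members were small: Hoxa10 stood at 0 and 0.12 CPM in Tet1-WT and at 1.1 and 0.121 in Tet1-KO, Hoxc10 at 0.119 and 0 against 0.0645 and 0.182, and Hoxb7 at 0 and 0 against 0.0645 and 0.0607 CPM. In E14.5 females Hoxa10 stood at 0.554 and 0.424 against 1.78 and 0.315 CPM, Hoxc10 at 0.302 and 0 against 0 and 0, and Hoxb7 at 0.0503 and 0 against 0 and 0 CPM. Many of these levels are a few reads per library.

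Between E12.5 and E14.5 many Hox genes fell in Tet1-WT of both sexes. In females 14 of 34 members fell, beside 14% of all genes called lower, and in males 14 fell, beside 7.75%. Both later libraries lay below both earlier ones for 26 of 35 members with a count in females (28.8% of all genes) and 29 of 35 in males (26.3%). Hoxc10 fell by 5.86 on the log2 scale in females (SE 0.97, adjusted p = 0.00045) and by 8.15 in males (SE 1.10, adjusted p = 0.000342). Hoxa10 fell by 5.11 in females (SE 0.98, adjusted p = 0.00113) and by 8.75 in males (SE 1.20, adjusted p = 0.000286). Hoxd10 fell by 4.08 in females (adjusted p = 0.00419), and in males it went to 0 counts, at least 74.7-fold lower (adjusted p = 0.000418). The called members came from clusters a, c and d, and cluster b gave 1, Hoxb7, in males. Cluster b began low, with E12.5 sums of 3.83 and 4.63 CPM in females and 6.84 and 4.57 CPM in males. Its median log2 differences were -3.41 and -5.14. Without overlap, 5 of its 9 members with a count lay lower and 1 higher in females, and 6 of 8 lower and 0 higher in males. By paralogue class, 6 and 7 of the 13 tested members of groups 4 to 8 fell in females and males, and 5 and 6 of the 7 members of groups 9 and 10.

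Calls for Hoxa7, Hoxa10, Hoxc10 and Hoxd10 in females, and for Hoxa5, Hoxa10, Hoxc6, Hoxc8, Hoxc10 and Hoxd10 in males, held without any 1 library. The counts were smaller without female E12.5 replicate 1 (9), female E14.5 replicate 1 (4) or 2 (6), male E12.5 replicate 1 (6), or male E14.5 replicate 1 (8) or 2 (6). Beside these falls 13 of the 15 mesenchyme markers fell in each sex, as did 4 of 12 gonadal somatic and 3 of 9 mesonephric and coelomic epithelial markers in each. Endothelial and blood markers fell for 3 of 11 in females and 2 in males. Of the 10 germ cell markers 8 fell in females, with a median log2 difference of -1.96, while in males 4 rose and 2 fell. With the mesenchyme level as a covariate 0 members were called in either sex.

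Between E10.5 and E12.5 most Hox genes lay lower at the later stage in Tet1-WT, and edgeR called 1. Without overlap of libraries, 31 of 37 members with a count lay lower and 2 higher in females (22.5% and 25.2% of all genes), with a median log2 difference of -2.61 over the 34 tested. In males 28 of 37 lay lower and 0 higher (22.5% and 25.4%), with a median of -1.71. In females Hoxb7 fell from 11.1 and 18.9 to 0.295 and 0.789 CPM (log2 -4.77, SE 1.48, adjusted p = 0.0483), the only member of 34 called by edgeR, beside 4.83% of all genes. DESeq2 called 9 and the fit of the 4 libraries alone 10. Leaving out each of the 4 libraries in turn ended this call (adjusted p from 0.0915 to 0.217). In males 0 were called, with 5 at an unadjusted p under 0.05, 2 by DESeq2 and 10 in the fit of the 4 libraries alone, beside 3.05% of all genes called lower. In the same interval 8 of 10 germ cell markers rose in females and 7 in males, Dazl and Ddx4 among them. Of the 15 mesenchyme markers 2 fell and 0 rose in females, and 1 fell and 1 rose in males. Hoxb13 and Hoxc13 were at 0 counts in the E10.5 libraries of the Tet1 cross. In E12.5 female Tet1-WT Hoxb13 stood at 1 and 0.841 CPM and Hoxc13 at 0.825 and 0.105 CPM. In E12.5 male Tet1-WT they stood at 0 and 0.313 CPM and at 0 and 0.251 CPM. The E10.5 MF1 libraries, scaled separately, had 0 and 2.51 CPM of Hoxb13.

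In Tet1-KO, Hox genes were called in both intervals. In females 11 of 34 members fell from the libraries labelled Tet1-KO at E10.5, beside 3.66% of all genes called lower, and in males 3 fell, beside 2.86%. Hoxc10 fell by 4.53 in females (SE 0.84, adjusted p = 0.00361), Hoxd8 by 5.75 (SE 1.20, adjusted p = 0.00654) and Hoxc8 by 6.33 (SE 1.31, adjusted p = 0.00662). In males the 3 were Hoxa2, Hoxc9 and Hoxd8. The female count was 2 without library a or b of E12.5, and the male count was 7 without E10.5 replicate 1 and 0 without library a or b of E12.5. Without E10.5 replicate 2 none of Hoxa2, Hoxc9 and Hoxd8 was called in males. When the 4 libraries compared were fitted alone, both counts were 0. From E12.5 to E14.5 Hoxc10 alone fell in females (7.02% of all genes called lower), and was not called without library b of E12.5 or of E14.5. In males 6 members fell in that interval (4.87%), with 1 call without library a of E12.5, 2 without library a of E14.5 and 0 without library b of E14.5. Mesenchyme markers fell in the same comparisons, 11 of 15 in females and 4 in males from E10.5 to E12.5, and 5 and 8 from E12.5 to E14.5. With the mesenchyme level as a covariate 0 members were called in any of these 4 comparisons. Comparisons of Tet1-KO and Tet1-WT over time share no libraries, but each shares libraries with the comparisons between genotypes, and the difference in timing was not tested.

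Between the sexes, Tet1-WT cells at E12.5 gave 0 calls of 34, with 2 at an unadjusted p under 0.05, 0 by DESeq2, and 0.575% of all genes called. At E14.5 3 members were lower in males, Hoxb9, Hoxc8 and Hoxd10, beside 14.1% of all genes called lower. Each had 0 counts in both male libraries, and Hoxb9 was at least 7.78-fold lower (adjusted p = 0.0261). The count was 0 without female replicate 1 or male replicate 1 and 1 without male replicate 2, where none of these 3 was called.

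The MF1 cross gave a second view of wild-type PGCs at E10.5, from a separate fit of 15500 genes and 4 libraries. The Hox sum was 22.7 and 43.9 CPM in MF1 against 342 and 449 CPM in libraries labelled Tet1-WT in that scaling. The highest members by CPM were Hoxd8 at 3.53 and 5.63 CPM, Hoxa10 at 1.2 and 4.92 CPM and Hoxc6 at 3.04 and 2.43 CPM. The MF1 libraries differed from each other: Hoxb9 stood at 0 and 4.26 CPM, Hoxb13 at 0 and 2.51, Hoxd3 at 0.0175 and 3.12 and Hoxc4 at 0 and 2.14 CPM. Of 37 members with a count 32 lay lower in both MF1 libraries and 0 higher, beside 25% of all genes lower and 18.9% higher. None of 33 tested passed by edgeR (0.516% of all genes called lower), with 20 at an unadjusted p under 0.05 and 19 called by DESeq2. Hoxc10 came nearest (log2 -4.28, SE 0.56, adjusted p = 0.0522). The count was 21 without MF1 replicate 1, 25 without MF1 replicate 2 and 2 without Tet1-WT replicate 1. The mesenchyme sum was 48.4 and 66.7 against 1769 and 2098 CPM, and the germ cell sum 5504 and 5962 against 1794 and 1433 CPM. Cross, RNA kit and depth cannot be told apart here.

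Of the 4 lists of partners, regulators and neighbours, the TALE cofactors had the summed level that ranked most like the Hox sum (rho 0.94 over 20 libraries, as a description). Of 9 partners, 2 fell at E10.5 (4.7% of all genes called lower), 2 in E12.5 females (1.15%) and 2 in E12.5 males (0.939%), Meis1 each time. At E14.5 0 were called in either sex, beside 3.29% of all genes lower and 3.36% higher in females. In E14.5 males those shares were 0.0228% and 0.0797%. Meis1 stood at 476 and 641 CPM in E10.5 libraries labelled Tet1-WT and at 130 and 262 CPM in those labelled Tet1-KO (log2 -1.51, SE 0.39, adjusted p = 0.0288). In E12.5 females Meis1 stood at 168 and 223 against 14.7 and 13.4 CPM (log2 -3.80, SE 0.44, adjusted p = 0.000463). Pbx3 did otherwise: it stood at 13.3 and 12.1 CPM in E12.5 female Tet1-WT and rose to 100 and 86 CPM at E14.5 (log2 2.88, SE 0.70, adjusted p = 0.00615), against 5.88 and 3.44 CPM in E14.5 male Tet1-WT. Among 10 regulators of the CDX, retinoic acid and GDF11 pathways, 1 of 9 tested fell at E10.5, beside 4.7% of all genes. It was Cyp26b1, a retinoic acid-degrading enzyme, and 0 were called in the other 4 comparisons of genotypes.

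Polycomb and Trithorax genes, which keep Hox clusters silent or active, gave calls in some comparisons of genotypes. Their 21 members summed to between 1582 and 2224 CPM in all 20 libraries. In Tet1-KO 2 rose and 1 fell at E10.5, beside 4.1% and 4.7% of all genes. In E12.5 females 0 rose and 1 fell (0.142% and 1.15% of all genes). In E14.5 females 2 rose and 0 fell (3.36% and 3.29%), and 0 were called in males of either age. Kdm6b, an H3K27 demethylase, was the one that fell in E12.5 females (log2 -1.84, SE 0.32, edgeR adjusted p = 0.00806). At E10.5 Cbx7 and Phc1 rose and Cbx8 fell. From E12.5 to E14.5 in female Tet1-WT 3 rose and 6 fell, beside 14% of all genes called lower. At E14.5 4 were higher and 4 lower in male than in female Tet1-WT, beside 14.1% of all genes called lower. The shares of all genes called higher in these comparisons are not reported here. The 11 genes that flank the clusters served as a view of their surroundings. Of these, Lnpk and Calcoco1 fell at E10.5 and again in E14.5 females, where Calcoco2 rose. Calcoco1 fell in E12.5 males, and 0 were called in E12.5 females and E14.5 males. Of all genes, 4.7% fell at E10.5, 3.29% in E14.5 females and 0.939% in E12.5 males, and 3.36% rose in E14.5 females. Summed levels of 12 gonadal somatic markers, for supporting and steroid-producing cells, lay lower in Tet1-KO along with the Hox sum at E10.5 and E12.5. They were 189 and 143 against 22.7 and 82.6 CPM at E10.5, 52.8 and 72.7 against 7.99 and 8.32 CPM in E12.5 females, and 134 and 77.3 against 27.1 and 21.5 CPM in E12.5 males. The median log2 differences of the 10 tested were -2.07, -2.04 and -2.07, and their part in the Hox results was not tested. At E14.5 the sums overlapped in females, at 7.15 and 4.88 CPM in Tet1-WT against 5.47 and 6.79 CPM in Tet1-KO. In E14.5 males they lay higher in Tet1-KO, at 40.4 and 35.4 CPM against 21 and 24 CPM in Tet1-WT. By calls between genotypes, the cell type lists gave 0 of 9 markers of mesonephric and coelomic epithelium and 0 of 6 of hindgut epithelium (1 tested). Of the 12 gonadal somatic markers (10 tested) 1 was lower at E10.5, beside 4.7% of all genes. Endothelial and blood markers gave 1 higher and 3 lower of 11 at E10.5 (4.1% and 4.7% of all genes) and 1 of each in E14.5 females (3.36% and 3.29%). Of 7 neural crest, neural and somite markers 1 rose in E14.5 females, beside 3.36% of all genes.

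Over the 20 libraries of the Tet1 cross, the 10 genes outside the clusters whose CPM ranked most like the Hox sum were Nr2f1 (Spearman's rho 0.968), Cald1, Igf2, Gpc3, Dlk1, Gas1, Upk3b, Unc5c, Chst2 and Meis1 (0.941), out of 9830 genes compared. This is a description over libraries that share stage, genotype and depth. Nr2f1 is a nuclear receptor and one of the 15 mesenchyme markers, and Upk3b is one of the markers of coelomic epithelium. Nr2f1 stood at 58.4 and 68.5 CPM in E10.5 libraries labelled Tet1-WT, at 10.2 and 20.1 CPM in E12.5 female Tet1-WT and at 1.12 and 1.41 CPM in female Tet1-KO of that age.

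Of the 38 members, 4 were not tested because of low counts: Hoxb2 with 46 counts over the 20 libraries, Hoxd1 with 36, Hoxb8 with 2 and Hoxc12 with 1. Annotated exons of 15 members share bases with another gene, 8 on the same strand and 9 on the opposite strand, so that reads there can be lost or shared. Hoxd10 shares exon bases with Gm28309 on the same strand, as does Hoxd11, Hoxc10 shares them with Hoxc5, and Hoxa10, Hoxb7 and Hoxd8 share none.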

How the data were processed

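The authors deposited raw read counts per gene in 2 tables, 1 for the 20 libraries of the Tet1 cross and 1 for the 2 MF1 libraries. Per the submitters' processing notes, Trimmomatic, TopHat2 2.0.2, Bowtie 0.12.8 and HTSeq 0.5.3p9 were used with build mm9; the strand setting is not given in the sources used here. cDNA was amplified by 15 cycles and libraries by 15 more, per the labels, without molecular identifiers. Bounds from 3 counts therefore cover only the counting error of the group at 0 counts. Symbols and exon lengths came from GENCODE M21 (GRCm38, a later build), matched by identifier. Counts were filtered (filterByExpr, minimum count 10, minimum total 15), TMM-scaled and fitted with edgeR 4.0.16 in R 4.3.3 (robust quasi-likelihood, 1 coefficient per group, 10 residual degrees of freedom); MF1 was compared with E10.5 Tet1-WT in a separate fit. The method was tested on simulated data. Alternatives were RLE scaling, no filter, DESeq2 1.42.0, the 4 libraries alone, a replicate block, the mesenchyme level as covariate and each library left out. Members, the 11 gene lists (partners, 2 of regulators, cluster neighbours and 7 of cell types) and comparisons were chosen with earlier results of these data known. Named genes were each member called between genotypes, the highest of each cluster by mean CPM, up to 4 called genes of smallest p in each list (some given as counts alone), Tet1, and 10 genes ranked like the Hox sum; the others were chosen after their values were seen. Figures were drawn with matplotlib 3.10.9. Values of some single genes are not reported here.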

Additional observations from a re-analysis of the deposited data

How the results depend on the processing

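The counts of Hox genes called depended on the filter, the tool, the fit and single libraries, and the direction of called members held in every alternative except that with the mesenchyme covariate. Without a filter on low counts the counts were 3 at E10.5, 10 and 3 in E12.5 females and males, and 4 and 2 in E14.5 females and males for Tet1-KO against Tet1-WT. They were then 10 and 5 for Tet1-WT E12.5 females and males against E10.5, 22 for E14.5 against E12.5 males, 20 and 11 for Tet1-KO E12.5 females and males against E10.5, 4 for Tet1-KO E14.5 against E12.5 females, 8 between the sexes in Tet1-WT at E14.5, 10 for MF1 and 2 for the sex difference in the effect at E14.5. With DESeq2 they were 3, 8, 3 and 4 for Tet1-KO against Tet1-WT up to E14.5 females, 9 and 2 for Tet1-WT E12.5 females and males against E10.5, 9 for Tet1-KO E12.5 males against E10.5, 4 for Tet1-KO E14.5 against E12.5 females, 6 between the sexes at E14.5, 19 for MF1 and 2 for the sex difference at E14.5. With only the 4 libraries compared, they were 0, 7, 7 and 0 for Tet1-KO against Tet1-WT up to E14.5 females, 10 and 10 for Tet1-WT E12.5 against E10.5, and 0 for Tet1-KO E12.5 against E10.5 in both sexes and for Tet1-KO E14.5 against E12.5 females; 3 to 32 members passed the filter there, against 34. RLE scaling gave 3 for Tet1-WT E12.5 females against E10.5.

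With the mesenchyme level as a covariate, 0 members were called at E10.5 and in E12.5 and E14.5 females between genotypes and in all comparisons of stages that had calls, and 5 between the sexes at E14.5. Called members then changed sign, none of them called: Hoxa9 in Tet1-WT E14.5 against E12.5 females (log2 1.20) and males (8.24), Hoxb7 (4.45) and Hoxc9 (2.93) in those males, and Hoxa9 in Tet1-KO E12.5 females against E10.5 (2.68). In each comparison that lost all its calls, the mesenchyme sum did not overlap between the groups compared. The covariate therefore cannot be separated from the group difference, and the lost calls do not show what the Hox differences rest on. The cause of the changed signs was not tested.

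Leaving out 1 library gave 0 to 3 calls between genotypes at E10.5, 0 to 3 in E12.5 females and 0 to 1 in E14.5 females. It gave 0 to 1 for Tet1-WT E12.5 females against E10.5, 4 to 10 and 6 to 10 for Tet1-WT E14.5 against E12.5 females and males, 2 to 15 and 0 to 7 for Tet1-KO E12.5 females and males against E10.5, 0 to 1 and 0 to 4 for Tet1-KO E14.5 against E12.5 females and males, 0 to 3 between the sexes at E14.5 and 0 to 25 for MF1. A lone library was assumed to vary like the other groups. Replicate numbers paired no libraries, as deviations of same-numbered libraries correlated between -0.032 and 0.048. A replicate block could be fitted for the 12 numbered libraries of the Tet1 cross and for MF1, and gave 4 calls for Tet1-WT E12.5 females against E10.5 and 4 for MF1. With the block, Hoxa2, Hoxa6, Hoxc4, Hoxc8 and Hoxd12 of the 14 female calls and Hoxa6, Hoxa9, Hoxc9 and Hoxd11 of the 14 male calls for E14.5 against E12.5 were no longer called. Those 12 libraries were also fitted alone without the block, an alternative chosen after seeing the data. This fit gave 4 calls for Tet1-WT E12.5 females against E10.5 and 6 between the sexes at E14.5. For E14.5 against E12.5 it lost only Hoxa6 and Hoxd12 in females and Hoxa6 in males. Summed Hox levels moved by less than 1 SD with RLE or unscaled totals. Many members had few or 0 reads at E14.5, which limits what could be detected for them.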
